A study of Homo sapiens with 2 samples.

Results

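Fibroblast growth factors (FGFs) are secreted signals that bind receptor tyrosine kinases (FGFRs) together with heparan sulphate on the cell surface, and the bound receptor passes the signal through adaptor proteins to the RAS and ERK kinases. In the lung, fibroblasts of the mesenchyme make several FGFs, of which FGF7 and FGF10 act mainly on the epithelium, whereas FGF2 also acts on the fibroblasts themselves as a mitogen. ERK signalling in turn switches on its own inhibitors, the Sprouty and DUSP proteins, and transcription factors of the ETS class. The genes described here are 6 ligands (FGF1, FGF2, FGF5, FGF7, FGF10 and FGF18) and the 4 receptors FGFR1 to FGFR4, taken by name through the RefSeq accession of each probe. They make up 10 of the 21743 genes named on the array and are covered by 19 of its 30275 named probes.

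The question of the study was which genes of lung fibroblasts depend on periostin, a matricellular protein encoded by POSTN. RNA of MRC-5 cells, a standard fibroblast line grown from human fetal lung, was compared between 1 culture given control siRNA and 1 culture given siRNA against periostin at 10 nM for 48 h. The dose and time of the control siRNA are not given separately in the labels. Each culture was measured on 1 single-colour Agilent array, and the pair shared a slide. With 1 array per condition no test between the conditions was possible, no p-value is given and no difference has a replicate check. Values are background-subtracted signals in arbitrary units, scaled so that the 75th percentile of both arrays is 377, and differences are log2 ratios of periostin siRNA to control siRNA. The error of a probe printed once is the one the scanner program propagates for the spot, and that of a probe printed 10 times is the SD over its spots. Neither covers the difference between cultures. A signal is called measured where the scanner program marks it well above background, which held for 58.0% of the spots with control siRNA and 58.9% with periostin siRNA.

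POSTN itself had signals of 2638 (control siRNA) and 279.8 (periostin siRNA), and its log2 ratio was -3.24 ± 0.20 (spot error). The array labelled periostin siRNA is thus the one with the lower periostin signal. All 12 lung fibroblast markers of a fixed list, among them COL1A1, VIM and PDGFRA, were measured on both arrays. The fetal lung mesenchyme factors TCF21 and TBX4 were among them, but lower with periostin siRNA, at -1.14 ± 0.20 and -1.35 ± 0.31, the latter -0.40 under the normexp background correction. They were the only 2 of the 12 past 2-fold, where 14.4% of all measured genes were. Of the 12 fibroblast markers 9 had a log2 ratio below 0, where 45.5% of all measured genes did, and their median was -0.15. LUM was the highest of the 3 above 0, at 0.83 ± 0.20. Of 12 lung epithelial markers 7 were measured, with a summed signal over the list of 4348 with control siRNA and 6590 with periostin siRNA. All 7 had a log2 ratio above 0, where 54.5% of all measured genes did. SCGB1A1 was the lowest of the 7, at 0.08 ± 0.21. EPCAM was the highest of them at 1.97 ± 0.22 (1.08 under the normexp background correction), while CDH1, FOXJ1, NKX2-1, SFTPB and TP63 were below background on both arrays. Under the alternative processing settings 6 or 7 of the epithelial markers were above 0. The summed signals were 5626 and 5337 for 7 endothelial markers, of which PECAM1 and ERG were below background on both arrays. For 9 immune cell markers they were 1940 and 3123, with HLA-DRA, LAPTM5 and MS4A1 below background on both arrays. The upward lean was not particular to the epithelial list, since 5 of 6 measured immune markers were above 0 (3 to 5 under the alternatives). Of 5 measured endothelial markers 4 were below 0. Most of the epithelial, endothelial and immune sums came from a single gene each. These were KRT18 (3048 and 4264), TEK (5457 and 5175) and CD68 (1528 and 2451), so the sums do not measure the amount of a cell type. The part of other cell types in the values below was not tested. In bulk RNA, fewer cells expressing a gene and less RNA per cell cannot be told apart.

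Of the 10 members, 7 were measured on both arrays, FGF18 with control siRNA alone, and FGF10 and FGFR2 on neither. FGF2, FGF5, FGFR1, FGFR3 and FGFR4 were lower with periostin siRNA on each of their measured probes and FGF18 on its only probe. FGF7 was higher on both of its probes, and the probes of FGF1 pointed in opposite directions. By the brightest probe of each gene, 6 of 8 members had a log2 ratio below 0, where 45.5% of all 16052 measured genes did and 54.5% were above 0, and the median was -0.56 against 0.06 over all measured genes. More than 3-fold lower was 1 member, FGF18, on an approximate bound, where 2.75% of all measured genes were lower by that much. More than 3-fold higher were 0 members, against 3.37% of all measured genes, or 6.12% for either direction. At 2-fold, 3 members were lower and 0 higher, against 6.42% and 7.97% of all measured genes.

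The sequences just upstream of 4 members are shown for the 3 members lower by more than 2-fold, FGF2, FGF18 and FGFR3, and for FGF7, the member with the highest ratio, and were chosen after these values were seen. Each is the 250 bases before the annotated start site on the plus strand of GRCh38.p14, from RefSeq, written 5′ to 3′ with the GC box (GGGCGG on either strand, the letters of the Sp1 site) in capitals. FGF2 is at chr4:122826581-122826830, FGF18 at chr5:171419397-171419646, FGFR3 at chr4:1793043-1793292 and FGF7 at chr15:49422992-49423241.
FGF2: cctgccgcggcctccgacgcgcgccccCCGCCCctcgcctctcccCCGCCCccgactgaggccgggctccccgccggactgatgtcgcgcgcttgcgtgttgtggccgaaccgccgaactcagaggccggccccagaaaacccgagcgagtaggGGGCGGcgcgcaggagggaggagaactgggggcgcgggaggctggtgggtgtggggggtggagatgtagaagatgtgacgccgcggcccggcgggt
FGF18: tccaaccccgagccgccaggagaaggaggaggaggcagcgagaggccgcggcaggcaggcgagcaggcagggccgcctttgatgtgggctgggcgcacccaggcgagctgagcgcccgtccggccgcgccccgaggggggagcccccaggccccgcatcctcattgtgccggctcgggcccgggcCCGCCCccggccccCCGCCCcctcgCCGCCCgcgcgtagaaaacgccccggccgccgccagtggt
FGFR3: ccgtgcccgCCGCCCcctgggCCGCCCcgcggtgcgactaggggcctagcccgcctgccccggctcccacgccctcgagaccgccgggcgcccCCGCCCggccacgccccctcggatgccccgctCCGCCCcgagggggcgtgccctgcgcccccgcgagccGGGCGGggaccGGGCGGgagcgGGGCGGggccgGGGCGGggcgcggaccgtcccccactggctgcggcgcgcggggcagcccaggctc
FGF7: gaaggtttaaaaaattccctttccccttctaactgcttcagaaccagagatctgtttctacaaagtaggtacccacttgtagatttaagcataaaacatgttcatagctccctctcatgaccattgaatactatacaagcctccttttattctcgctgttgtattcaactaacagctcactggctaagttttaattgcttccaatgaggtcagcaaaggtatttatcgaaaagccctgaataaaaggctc

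The upstream stretches of FGF2 and FGF18 held 3 GC boxes each and that of FGFR3 held 8, whereas that of FGF7 held 0. The base composition differed as well, with a G and C content of 75.2% for FGF2, 78.8% for FGF18 and 86.8% for FGFR3 against 38.4% for FGF7. The core letters of ETS sites, GGAA on either strand, were at 3 positions upstream of FGF7 and at 0 positions upstream of the other 3. Of 35116 windows of the same length before all annotated start sites, 42.6% held a GC box and 92.7% the GGAA core. The other members did not follow this division. FGF5 and FGFR4, also lower, have 2 annotated start sites each, and the GGAA core was in 2 of 2 windows and the GC box in 1 of 2 for both genes. FGF1 had the core in 4 of 4 windows and the GC box in 2 of 4. FGF10 and FGFR2, measured on neither array, had the core in 1 of 1 and 5 of 5 windows. The GC box was in 0 of 1 and 2 of 5 of them. These are matches of letters in a short window and were not tested as binding sites. A window was available for 9 of the 10 members. The exception was FGFR1, also lower, which was therefore not examined.

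Among the ligands, FGF2, a mitogen of fibroblasts and endothelial cells, had a signal of 550.0 with control siRNA and 232.5 with periostin siRNA on its brighter probe. Its other probe gave 251.7 and 106.4. Both probes were thus lower by the same factor, with log2 ratios of -1.24 ± 0.20 and -1.24 ± 0.21 (spot error), or 2.37-fold. Probes printed 10 times at a like signal had an SD between spots of 0.09 for the brighter and 0.12 for the dimmer one, so the difference exceeded the spread between spots of 1 slide. Of all measured genes 4.39% had a ratio below that of FGF2.

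FGF7, also called keratinocyte growth factor, is made by mesenchymal cells and acts on epithelial cells through a splice form of FGFR2. On the brighter probe its signals were 1777 (control siRNA) and 2577 (periostin siRNA). On the other probe it was 519 and 856. Both probes were higher with periostin siRNA, by 0.54 ± 0.20 and 0.72 ± 0.20 on the log2 scale, where replicate spots of like signal had an SD of 0.06 and 0.07. FGF7 has partial copies elsewhere in the genome, and whether the probes tell them apart was not checked here. FGF10, the other mesenchymal ligand of that receptor form, had signals of 5.12 and 7.26 and was below background on both arrays.

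FGF18, a ligand of the fetal lung mesenchyme and of cartilage, had a signal of 23.9 with control siRNA. With periostin siRNA its signal was 6.18, not well above background. Set against the lowest signal well above background on that array, 7.77, it was 3.07-fold lower. This bound is approximate, since spots not marked well above background reached higher signals there, such as 9.89 for another gene. With 9.89 as the floor FGF18 would fall short of 3-fold, so its place past that threshold depends on the floor chosen. The measured log2 ratio of the FGF18 spot was -1.95 ± 0.49 (spot error). Both FGF18 values rest on 1 dim spot. Under the normexp correction the bound was -0.34 on the log2 scale, against -1.62. That correction models the background from the median spot and background intensities, without the detrending of the main values, and adds an offset of 50.

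FGF5, whose best known role is to end the growth phase of the hair follicle, had signals of 102.8 with control siRNA and 61.8 with periostin siRNA. The next probe, designed on its shorter transcript (NM_033143), gave 33.4 and 27.4, and another was below background on both arrays. The log2 ratios were -0.73 ± 0.21 and -0.28 ± 0.24, with an SD between replicate spots of like signal of 0.20 and 0.27, so that the difference on the NM_033143 probe was about as large as the spread between spots. FGF1, which binds all the FGF receptors, gave no agreed direction. Its probe for NM_001257206 had signals of 40.0 and 54.4 and a log2 ratio of 0.45 ± 0.22. Its probe for NM_000800 had 37.9 and 18.3, at -1.05 ± 0.26, and one more probe was below background on both arrays. Since the brightest probe stands for a gene, FGF1 is counted above as higher, and the mean over both measured probes was -0.30.

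**Figure D1:**
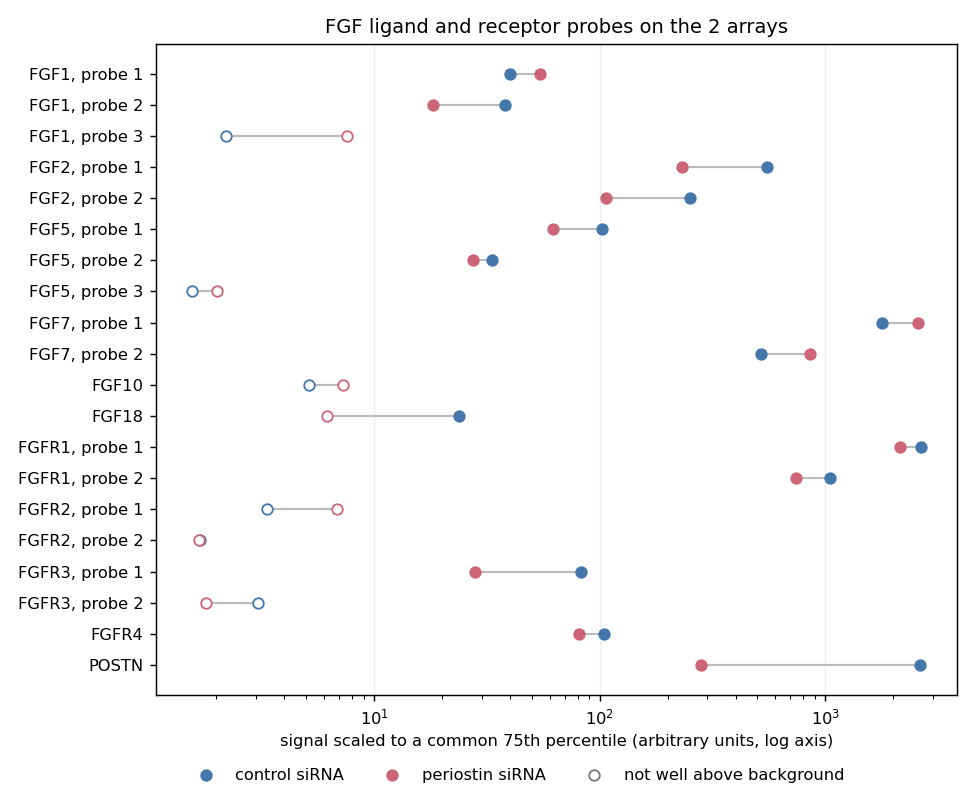
Signal of each probe of the FGF ligands and receptors and of POSTN, on a log axis in arbitrary units scaled to a common 75th percentile, with control siRNA in blue and periostin siRNA in red and probes of a gene numbered from the brightest. Open circles are not well above background, as for both arrays at FGF10 and FGFR2 and for periostin siRNA at FGF18, and the pairs of FGF2, FGF7 and FGFR1 show the same direction on both of their probes.

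Among the receptors, FGFR1, the main FGF receptor of mesenchymal cells, had signals of 2656 with control siRNA and 2140 with periostin siRNA. Its second probe gave 1047 and 744. Both probes were lower with periostin siRNA, at -0.31 ± 0.20 and -0.49 ± 0.20, while replicate spots of like signal had an SD of 0.06 and 0.07. The difference was larger than the spread between spots but small beside the spread over genes, 24.8% of which had a lower ratio than the brighter probe. FGFR3, a receptor known best for restraining the growth of cartilage, had signals of 82.5 and 27.9. This was a log2 ratio of -1.56 ± 0.22, or 2.95-fold lower, just short of 3-fold, with an SD of 0.25 for spots of like signal. Only 2.85% of measured genes had a lower ratio. The other FGFR3 probe was measured on neither array, so the value rests on 1 spot of each array. The size of its difference depended on the background correction, with -0.69 under normexp, whereas it passed 3-fold under scaling on the median, quantile normalization and loess, at -1.69, -1.67 and -1.65.

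FGFR4, the receptor that FGF19 binds in the liver, had signals of 105 and 80.6 on its only probe, a log2 ratio of -0.38 ± 0.21. Replicate spots of like signal had an SD of 0.18, so the difference was larger than either error but less than 3 times as large, from 1 spot per array. FGFR2, the receptor through which FGF7 and FGF10 reach the lung epithelium, was below background on both arrays by both of its probes, with signals of 3.34 and 6.87 on the brighter one. No ratio is given for it.

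**Figure D2:**
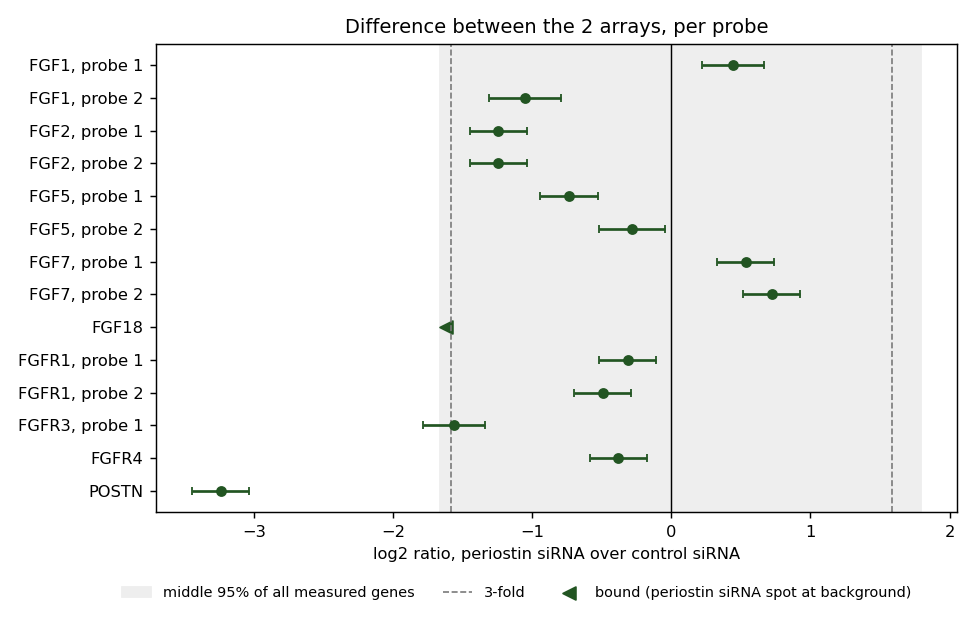
Log2 ratio (periostin siRNA over control siRNA) for each measured probe, with bars for the propagated spot error, dashed lines at 3-fold and a grey band for the middle 95% of all measured genes, from -1.66 to 1.79. POSTN, at -3.24, lies outside the band, and the FGF values plotted lie within it. The FGF18 bound of -1.62 and FGFR3 at -1.56 lie on either side of the 3-fold line. The measured ratio of the FGF18 spot, -1.95, is not plotted and would lie outside the band.

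The other FGF genes were described from lists written for this purpose. Of 12 further secreted ligands 8 were below background on both arrays and 4 could be measured. FGF9, a ligand made by the mesothelium and epithelium of the developing lung and acting on its mesenchyme, had signals of 127 with control siRNA and 322 with periostin siRNA. Its second probe gave 31.2 and 81.5. Both were higher with periostin siRNA, at 1.34 ± 0.21 and 1.39 ± 0.23, or 2.54-fold and 2.61-fold. FGF3 was the lowest of the 4, at -0.17 ± 0.23, and had the opposite sign under normexp, at 0.03. Of the intracellular FGF homologous factors, which are not secreted and bind sodium channels and microtubules, FGF13 alone could be measured, with 294 and 925 on 1 spot, a log2 ratio of 1.65 ± 0.20. It was the only FGF gene more than 3-fold higher, where 3.37% of all measured genes were, and was 1.37 under normexp, below that threshold. FGF12 and FGF14 were below background on both arrays.

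Of 10 co-receptors and binding proteins listed, 5 were measured, with a median log2 ratio of 0.08. Past 2-fold were 0 of the 5, against 14.4% of all measured genes, too few genes to tell from that share. The klotho proteins KL and KLB, which hormone-like FGFs need, were below background on both arrays. FGFRL1, a decoy receptor without a kinase, was the lowest at -0.34 ± 0.20, and FLRT2, a membrane protein that binds FGFRs, was the highest at 0.95 ± 0.21, with signals of 139 and 270.

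Heparan sulphate holds the ligand and receptor together, and its core proteins and enzymes are listed here by their counts. Of 9 measured core proteins 7 had a log2 ratio above 0, where 54.5% of all measured genes did, and 6 to 7 did under the alternative settings. Their median was 0.55. SDC2 was the highest, at 1.46 ± 0.37 from dim signals of 9.20 and 25.4, and 0.29 under normexp. GPC1, a glypican, had signals of 29550 and 43231, at 0.55 ± 0.20. GPC6 was the lowest, at -0.76 ± 0.20 and -1.11 ± 0.22 on its 2 probes. Of 12 measured enzymes 8 were above 0, with a range of 7 to 9 under the alternatives, the lower end of which is near the 54.5% of all genes, and a median of 0.43. HS3ST1, which adds a rare sulphate group known for binding antithrombin, had signals of 230 with control siRNA and 830 with periostin siRNA. Its log2 ratio was 1.85 ± 0.07 (SD over 10 spots), the only one of these enzymes past 3-fold. Of all measured genes 3.37% were more than 3-fold higher. SULF2, which removes sulphate groups outside the cell, had 527 and 1411, at 1.42 ± 0.20. GLCE, the epimerase of the chain, was the lowest at -0.62 ± 0.20.

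All 25 listed adaptors and kinases that relay the receptor signal were measured, with a median log2 ratio of -0.06. Of them 15 were below 0, where 45.5% of all measured genes were, and 10 were above it. Under the alternative settings 14 to 16 were below 0. PTPN11, the phosphatase SHP2 that FGFR signalling needs to activate RAS, was the lowest and the only one of them past 2-fold. Of all measured genes 14.4% were past 2-fold in either direction. The signals of PTPN11 were 2878 and 1296, at -1.15 ± 0.05 (SD over 10 spots). The other 2 probes of PTPN11 gave -1.08 ± 0.20 and -1.30 ± 0.21, so that all 3 probes were lower. FRS3 was the highest, about 1.59-fold higher from a bound, since its spot was below background with control siRNA. FRS2, the main adaptor of FGFRs, had signals of 264 and 317, at 0.27 ± 0.20.

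Among the inhibitors that ERK signalling induces, 10 of 15 were lower and 5 higher than 0, where 45.5% of all measured genes were lower. Under the alternative settings 9 to 10 of the inhibitors were below 0. More than 3-fold lower were 2 and higher 0, against 2.75% and 3.37% of all measured genes. SPRY2, a Sprouty inhibitor of receptor signalling, had signals of 1315 with control siRNA and 387 with periostin siRNA, at -1.77 ± 0.20. SPRY4 had 527 and 160, at -1.72 ± 0.21, and its dimmer second probe gave -0.73 ± 0.23. DUSP6, the phosphatase of ERK that is widely used as a readout of FGF signalling, had 6087 and 2042, at -1.58 ± 0.20, or 2.98-fold lower. SPRED1, at -1.56 ± 0.20, and DUSP1, at -1.44 ± 0.10 (SD over 10 spots), were lower by more than 2-fold as well. The list was not lower throughout. SPRY1 had 1941 and 2446, at 0.33 ± 0.20, with 0.04 on its other probe, and DUSP4, another ERK phosphatase, was the highest, with 198 and 342 at 0.79 ± 0.20. The median over the 15 genes was -0.32. Under normexp SPRY4 was -1.43 and no longer past 3-fold, while SPRY2 was -1.61.

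The ETS factors ETV1, ETV4 and ETV5, which form the PEA3 group and are known targets of FGF signalling in the lung, were lower on each of their probes. ETV1 had signals of 1614 with control siRNA and 260 with periostin siRNA on the brightest of its probes, at -2.63 ± 0.20. All 4 probes of ETV1 were lower, from -2.90 to -2.03. ETV4 had 149 and 35.0, at -2.09 ± 0.22, and ETV5 had 193 and 81.5, at -1.25 ± 0.21. ETS1, another ETS factor of the list, was higher with periostin siRNA, at 0.70 ± 0.25, and 0.18 under normexp. Of the AP-1 factors, FOS was lower at -2.09 ± 0.24, with signals of 93.7 and 21.97, and FOSL1 at -1.23 ± 0.20. JUN, their partner, was the highest of the list, with 2530 and 7158, or 2.83-fold higher. In all, 10 of 13 measured genes of this list were below 0, where 45.5% of all measured genes were, and the median of the list was -0.30. The count below 0 was 9 to 11 under the alternative settings. More than 3-fold lower were 3, namely ETV1, ETV4 and FOS, and higher 0, against 2.75% and 3.37% of all measured genes. Under normexp ETV4 was -1.13, FOS -1.02 and ETV5 -0.83, the last no longer past 2-fold. These genes answer to ERK signals from other receptors too, and the FGF ligands and receptors were not shown to set their levels.

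**Figure D3:**
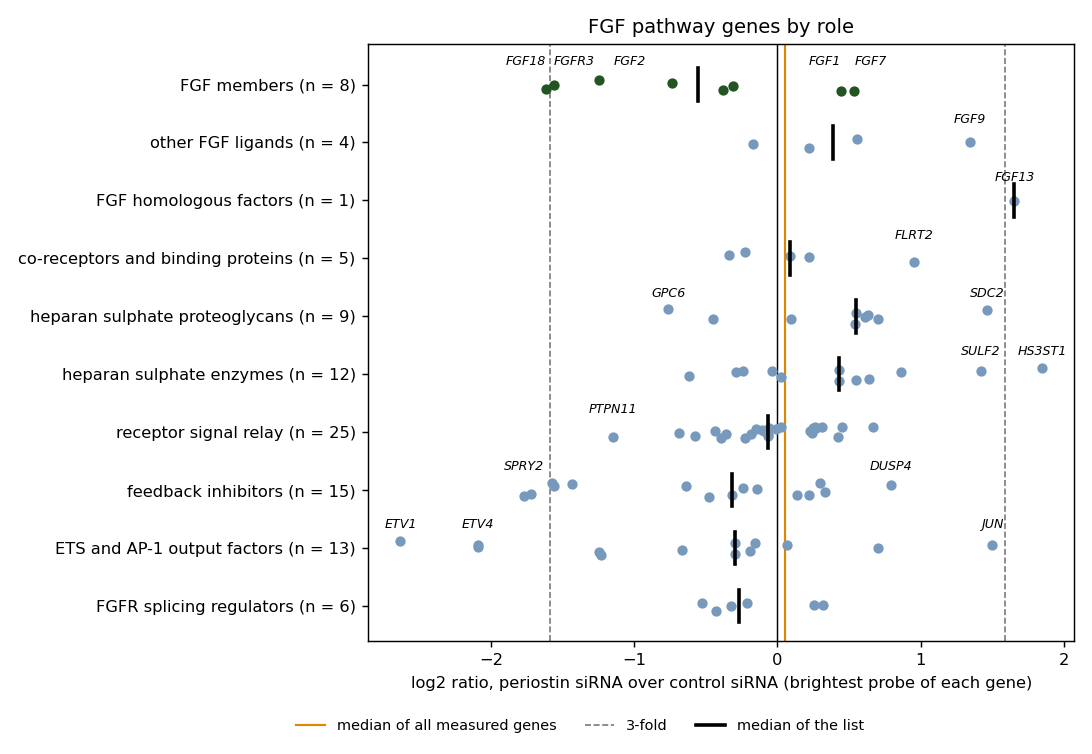
Log2 ratio (periostin siRNA over control siRNA) for the brightest probe of each measured gene, by role in the FGF pathway, with a black bar at the median of each list, an orange line at the median of all measured genes and dashed lines at 3-fold. ETV1, at -2.63, lies farthest to the left and HS3ST1, at 1.85, farthest to the right, and the relay genes lie around 0 except for PTPN11 at -1.15.

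**Figure D4:**
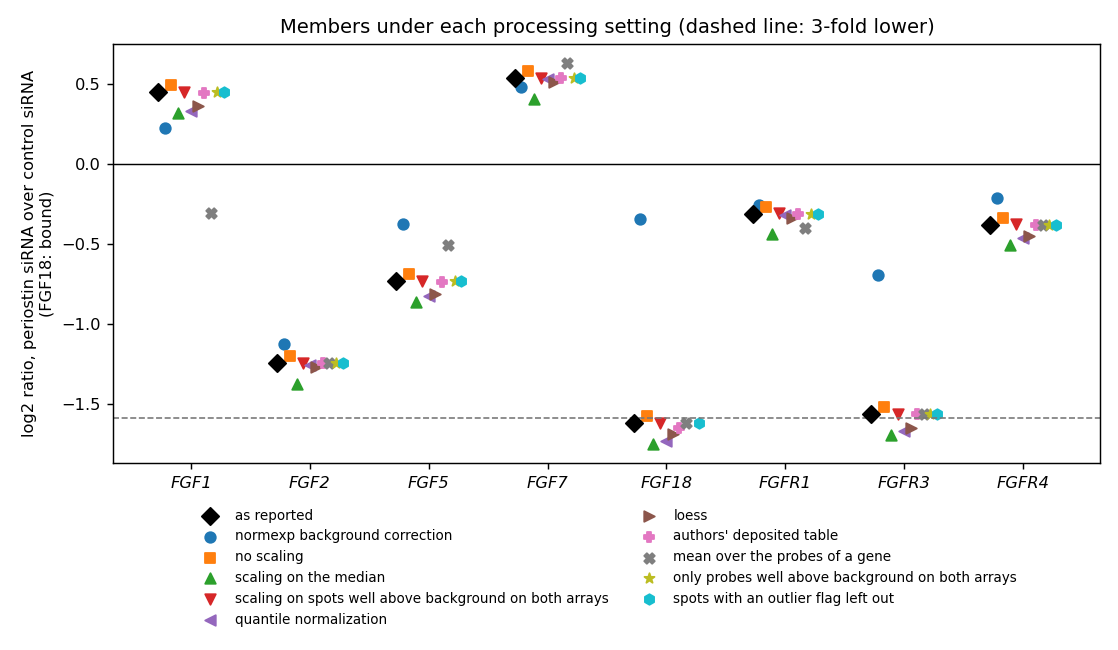
Log2 ratio of each measured FGF member (for FGF18 the bound) under the setting as reported, in black, and under 10 alternatives (9 for FGF18), with a dashed line at 3-fold lower. FGF2 stays between -1.37 and -1.13 and FGF7 between 0.41 and 0.63, whereas FGF18 and FGFR3 come closer to 0 under normexp, at -0.34 and -0.69, and FGF1 is below 0 when its probes are averaged.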

How the data were processed

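RNA of 1 control siRNA and 1 periostin siRNA culture was measured on 1 array each. The authors deposited scanner files holding intensity values, background-subtracted and detrended by Agilent Feature Extraction (version 11.5.1.1 in the file headers, 12.0.3.1 in the submitters' processing notes) without scaling between arrays. A table of normalized intensity deposited by the authors was used as an alternative, and for the 49697 probes printed once it equalled the scanner intensity times 1 factor per array, within 0.1%. No spot was saturated.

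Here the 58717 spots other than controls were scaled in log2 so that each array had the same 75th percentile, in Python 3.11.15 (numpy 2.4.6, pandas 2.3.3, matplotlib 3.10.9) and R 4.3.3 (limma 3.58.1). Spots of a probe were averaged, a probe counted as measured where the flag for a signal well above background was set on 0.5 or more of its spots, and the brightest probe stood for a gene. A probe measured on 1 array alone gave a bound, for which its dim signal was raised, where lower, to the smallest flagged signal of that array. Such a bound is approximate, since some spots without the flag had higher signals. Replicate spot SDs of like signal are pooled over probes printed 10 times within 0.5 of the mean log2 signal. Symbols came from RefSeq of GRCh38.p14 for 65.1% of spots. The array was designed on hg19, so no gene coordinates are given other than the GRCh38.p14 positions of the upstream stretches. FGF11, GPC2, HS3ST3A1 and ELK3 were not named through RefSeq accessions and were not analysed here.

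The members and gene lists were chosen with earlier results of these data known. Named are all members, POSTN and, of each list, the genes past 3-fold and the lowest and highest. Further genes (GPC1, SULF2, FRS2, DUSP6, SPRED1, DUSP1, SPRY1, ETV5, ETS1, FOSL1, ESRP1, ESRP2 and those named as below background) were chosen after their values were seen. So were the cell type markers named (COL1A1, VIM, PDGFRA, TCF21, TBX4, LUM, EPCAM, SCGB1A1, KRT18, TEK and CD68). The steps were tested on simulated data with changes in bright genes only, which did not try the bounds or changes at dim signals. The alternatives were other background correction, scaling, probe and filter choices and thresholds of 2-fold and 4-fold. The normexp alternative started from the median spot and background intensities, so it differs from the main values in detrending as well.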

Additional observations from a re-analysis of the deposited data

How the results depend on the processing

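No paired analysis was possible because there was 1 array a condition, which also left no replicate to omit. The normexp background correction gave -0.37 for FGF5, -0.34 for FGF18, -0.69 for FGFR3 and -2.99 for POSTN, and 0 members lower by more than 3-fold. The medians under it were -0.30 for the FGF members, 0.10 for the other ligands, 1.37 for the homologous factors (FGF13 alone), 0.26 for the heparan sulphate enzymes, -0.10 for the feedback inhibitors and -0.12 for the splicing regulators. By construction, its added offset shrinks log2 ratios most where signals are low.

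Scaling on the median lowered the median of all measured genes from 0.06 to -0.074. With it the medians were -0.69 for the FGF members, 0.26 for the other ligands, 1.53 for the homologous factors, -0.044 for the co-receptors and binding proteins (which changed sign), 0.42 for the heparan sulphate core proteins, 0.30 for the heparan sulphate enzymes, -0.19 for the relay genes, -0.45 for the feedback inhibitors, -0.43 for the ETS and AP-1 factors and -0.40 for the splicing regulators. Quantile normalization gave -0.46 for the feedback inhibitors.

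Scaling on the median, quantile normalization and loess each gave 2 members lower by more than 3-fold, and no scaling gave 0. At 2-fold 3 members were lower and at 4-fold 0. Requiring a measured signal on each array gave 0, and the medians were -0.38 for the FGF members and 0.22 for the other ligands. Averaging a gene's probes turned FGF1 to -0.30 and gave -0.51 for FGF5. FGF2, FGF5, FGF7, FGFR1, FGFR3, FGFR4 and POSTN kept their direction under all 10 alternatives, as did FGF18 under those that gave it a value, which leaves out the restriction to probes measured on each array. The number of arrays limits the precision of every value.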

Other observations

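FGF receptors exist in splice forms that bind different ligands, and the splicing factors that choose between the forms were measured as well. ESRP1 and ESRP2, which promote the epithelial forms, were dim on both arrays. ESRP1 had signals of 11.2 with control siRNA and 13.4 with periostin siRNA, at 0.26 ± 0.36 (spot error), and ESRP2 had 36.0 and 31.1, at -0.21 ± 0.21 (SD over 10 spots). HNRNPM was the lowest of the 6 splicing genes, with 2750 and 1913 at -0.52 ± 0.20. RBFOX2 was the highest, at 0.32 ± 0.06 (SD over 10 spots), while its other probe gave -0.18 ± 0.20. None of the 6 was past 2-fold, against 14.4% of all measured genes, too few genes to tell from that share. Their median was -0.27. Whether the receptor probes tell these splice forms apart was not checked here.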
